A study of Homo sapiens with 18 samples.

Results

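RNA sequencing of MCF10A cells compared a line made with a METTL3-directed CRISPR construct with its negative CRISPR control, in 6 of the 18 libraries of the series. MCF10A is a human mammary epithelial cell line that became immortal in culture without forming tumours, and it is the starting point of the MCF10 progression series. The control group was the negative CRISPR line, from cells that received a Cas9 construct with a control sgRNA. The other group came from cells that received an all-in-one Cas9 and mCherry construct whose sgRNA targets the first exon of METTL3. The authors describe the transfection as transient. Both lines were grown in medium with horse serum, insulin, hydrocortisone, cholera toxin and EGF. The members were the 6 libraries named by line and group in the labels, 3 per group with the replicate letters a, b and c. The methods describe transfection, cell sorting and clonal selection from single cells, so each group is 1 line, and differences between clones cannot be told apart from differences between constructs. The other 12 libraries are the same 2 groups in MCF10AT1, the line transformed with mutated HRas, and in MCF10CA1h, derived from it through xenografts in mice, and were used only where the effect in MCF10A was set beside theirs.

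METTL3 is the catalytic subunit of the complex that methylates adenosine at the N6 position (m6A) in messenger RNA, which it forms with METTL14 and WTAP. The methylated base is recognized by YTH domain proteins and other readers, and it is removed by the demethylases FTO and ALKBH5. It is known to influence the splicing, export, translation and decay of the transcripts that carry it.

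The values are the deposited normalized counts, which are comparable between libraries for 1 gene but not between genes, since they are not divided by length. They summed to between 21347352 and 25381239 per library, and 15416 genes whose values averaged 10 or more across these libraries were tested. Across these genes the correlation of log2 values was between 0.937 and 0.973 within the control libraries, between 0.966 and 0.972 within the libraries labelled knockdown, and between 0.913 and 0.954 across the groups. The control libraries differed from one another more than the others did. The 68 mitosis genes tested had a median log2 deviation from the 6-library mean of 1.30 in control a, -0.49 in control b and -2.26 in control c, against -0.03, 1.09 and 0.38 in the labelled knockdown. The interferon response genes were instead low in control b, as shown by IFI27 with 1301, 83.0 and 1388 in controls a, b and c. What a shared letter stands for is not given in the sources used here.

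Markers of basal epithelium were present. KRT5, TP63, ITGB4 and ITGA6 were present in all 6 libraries, with KRT5 at 101392, 103397 and 98452 in the controls and 191141, 181908 and 192669 in the labelled knockdown (log2 fold change 0.90 ± 0.18, adjusted p = 0.0455). Of the 6 basal markers tested KRT5 was the 1 called, and with the replicate block, described below, 2 others fell. KRT14 was at 2278, 2322 and 2699 against 361, 1275 and 797, with a log2 fold change of -1.76 ± 0.29 (adjusted p = 0.0129 with the block and 0.0608 without), and ITGB4 at 84787, 63301 and 94501 against 42466, 52013 and 51121, with -0.72 ± 0.17 (adjusted p = 0.0468 with the block and 0.116 without). The 4 epithelial markers EPCAM, CDH1, KRT8 and KRT18 summed to between 24300.3 and 28974 in the controls and between 20487 and 22788 in the labelled knockdown, and none was called. The progesterone receptor gene PGR and the neural gene SNAP25 were listed at 0 throughout, and COL3A1, PTPRC and CD3E did not exceed 5.31 in any library. The 5 endothelial markers summed to between 56.1 and 237 in the controls and between 339 and 536 in the labelled knockdown, in the latter almost all of it PECAM1. Of the 3 tested endothelial markers 1 was higher and 2 were lower, each at an unadjusted p under 0.05. Their median log2 fold change was -2.47, and none was called without the block. The 5 leukocyte markers in the table summed to between 238 and 425 in the controls and between 95.6 and 172 in the labelled knockdown, mostly CD14 and CSF1R, while PTPRC was at or near 0. PECAM1 was at 196, 39.8 and 15.9 against 531, 509.8 and 332, and rose only with the block, at 3.13 ± 0.49 (adjusted p = 0.011 with the block and 0.0772 without). Fibroblast markers summed to between 1083 and 1969.9 in the controls and between 1411 and 4249 in the labelled knockdown. For neural markers these ranges were 833 to 1291 and 364 to 674, and for adipocyte markers 5.49 to 12.5 and 11.4 to 27.2. The 6 luminal markers, PGR among them, summed to between 366 and 670 in the controls and between 462 and 618.5 in the labelled knockdown. Of the 3 tested luminal markers 2 were higher and 1 lower, with a median log2 fold change of 0.47, and none was called. The part of these markers in the results was not tested. In bulk RNA, fewer cells of a type and less RNA per cell cannot be told apart.

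METTL3 transcript was not lower in the libraries labelled METTL3 knockdown. METTL3 (chromosome 14, ENSG00000165819) was at 752, 686 and 459 in controls a, b and c and at 939, 981 and 509.8 in the labelled knockdown libraries. The groups overlapped, and the mean of the labelled knockdown was 128% of the control mean (log2 fold change 0.33 ± 0.30, adjusted p = 0.618). An exact two-sided permutation test of the 3 libraries against 3 gave p = 0.3, where the smallest value this design can give is 0.1. The authors reported less METTL3 protein by Western blot in their MCF10A knockdown lines. By real-time PCR they reported a smaller decrease of its mRNA, which was not seen in these libraries. Gene-level values do not show whether an edited transcript still encodes the enzyme, so the edit could not be checked here, and the group is called the labelled knockdown below. Of 26 tested writers, erasers and readers of m6A none was differentially expressed, with 1 at an unadjusted p under 0.05, and the median log2 fold change of the list was -0.02. With the replicate letter as a block the reader gene IGF2BP2 fell, at -0.83 ± 0.15 (adjusted p = 0.0162 with the block and 0.187 without).

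Differential expression was called in 409 of the 15416 genes, 2.65% of them, with 179 (1.16%) higher and 230 (1.49%) lower in the labelled knockdown. In all 409 genes the groups did not overlap, which was also so for 23.9% of all tested genes. An unadjusted p under 0.05 was reached by 2839 of the tested genes (18.4%). The median size of the change among the 409 genes was 1.92 on the log2 scale. With the replicate letter as a block, 1172 genes were called (7.6%), 438 higher (2.84%) and 734 lower (4.76%), and these included all 409 with the same direction. The number called also moved with single libraries. It was 1418 without control a, 86 without control b, 204 without control c, and 72, 141 and 52 without labelled knockdown a, b and c. Values below are the normalized counts of libraries a, b and c, and each log2 fold change, on the scale of log2(value + 1), is given with its SE from the fit of 3 libraries against 3. For a gene called only with the block, here and above, the SE is that of the block fit. Effects in other lines and differences between lines carry the SE of the fit of 18 libraries. A change given below without further words is a log2 fold change. Of 206 called genes named by the rule given under processing or afterwards, 201 kept their call without control a and 37 without labelled knockdown c. Not all of these genes are given in the text.

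The called genes were spread over many functions. EMT, interferon response, keratinization and extracellular matrix genes, kept as 4 lists of their own, held 38 of the 409 (9.29%), 11 higher and 27 lower. A further 161 were in 1 or more of 67 functional lists written for this comparison, 78 higher and 83 lower, and 210 were in none of them. Protein-coding genes made up 377 of the called genes and long noncoding RNAs 24. In 15 of the 67 functional lists no member was called. The share called and the median log2 fold change of each list are read below against 2.65% and -0.0035 over all tested genes. Counts at an unadjusted p under 0.05 are read against 18.4%, and counts called with the block against 7.6%.

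**Figure D1:**
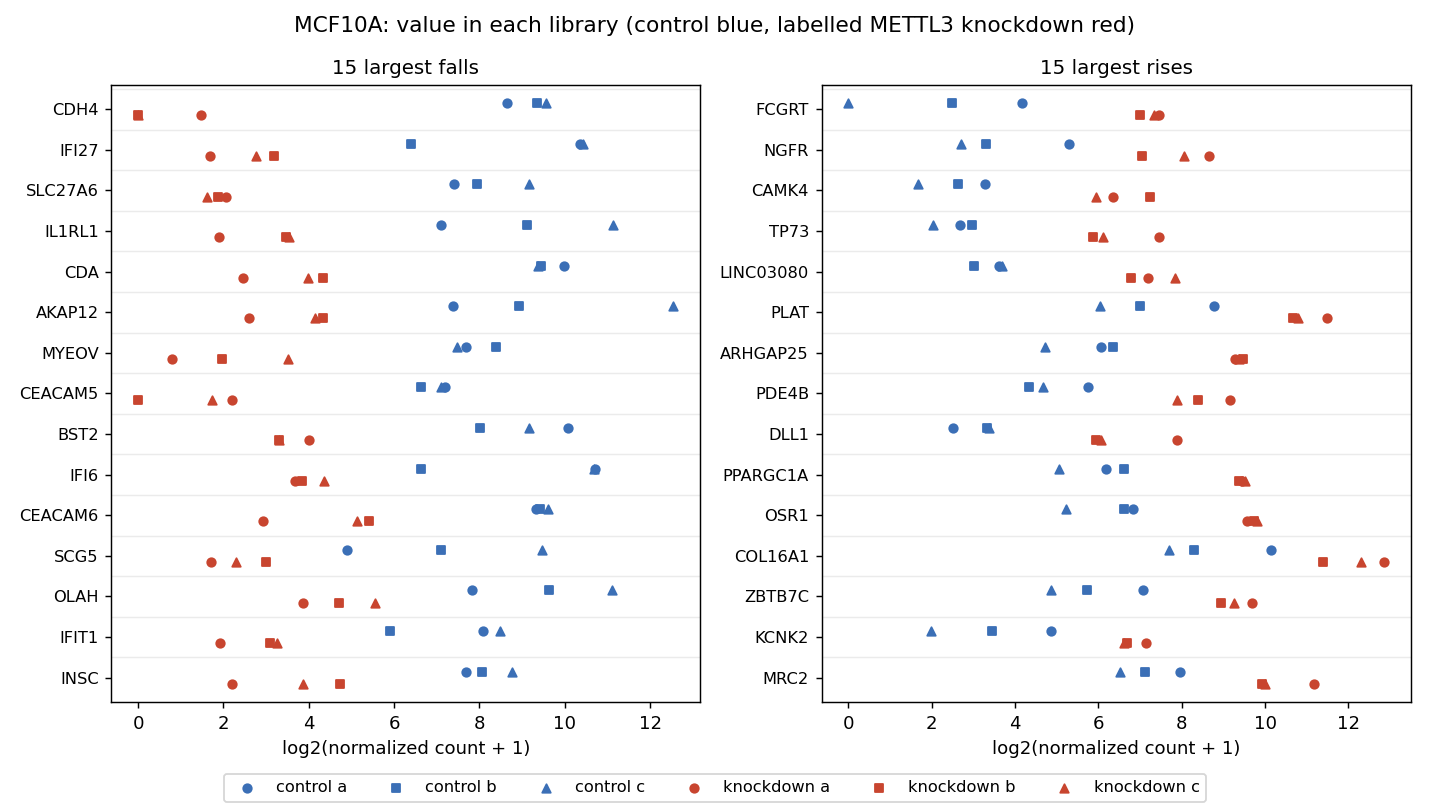
Value of each of the 15 genes with the largest falls (left) and the 15 with the largest rises (right) in each MCF10A library, as log2 of the normalized count plus 1. Blue marks are control and red marks labelled knockdown libraries, with circles, squares and triangles for replicates a, b and c. In each gene the groups do not overlap, and control c stands far above the other controls for AKAP12.

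Among the largest falls were genes that left almost no signal in the labelled knockdown. CDH4, which encodes R-cadherin, was at 402, 654 and 760.3 in the controls and at 1.78, 0 and 0 in the labelled knockdown (log2 fold change -8.70 ± 0.51, adjusted p = 0.0016). SLC27A6, a fatty acid transport protein gene, was at 167, 245 and 569 against 3.20, 2.67 and 2.08 (log2 fold change -6.31 ± 0.49, adjusted p = 0.00387). MYEOV, a gene of the 11q13 region often overexpressed in myeloma, fell from 205, 333 and 176 to 0.75, 2.92 and 10.4 (log2 fold change -5.75 ± 0.66, adjusted p = 0.00803). These 3 genes kept their call in each of the 6 fits that left 1 library out. EVC2, a ciliary gene of the Hedgehog pathway chosen after its values were seen, was at 75.05, 76.4 and 123 in the controls and listed at 0 in all 3 labelled knockdown libraries.

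Other large falls rested on fewer libraries. AKAP12, a scaffold for protein kinase A, was at 166, 487 and 5979 in the controls, so that control c was far above the other controls, and at 5.03, 19.1 and 16.8 in the labelled knockdown (log2 fold change -5.93 ± 1.16, adjusted p = 0.0399). IL1RL1, the receptor of interleukin 33, was at 136, 558 and 2249 against 2.75, 9.99 and 10.6 (log2 fold change -6.15 ± 0.93, adjusted p = 0.0173). Both kept their call in 2 of the 6 fits that left out a library. SCG5, a chaperone of the prohormone convertase PCSK2, was at 28.8, 135 and 709.8 against 2.25, 6.93 and 3.89 (log2 fold change -4.83 ± 1.01, adjusted p = 0.0498) and kept it in 1. OLAH, a medium-chain fatty acid thioesterase of mammary gland, fell from 227, 794 and 2211 to 13.5, 25.4 and 45.8 (log2 fold change -4.82 ± 0.77, adjusted p = 0.0217), and control a was the lowest control in all 4 genes. INSC, an adaptor of spindle orientation, was at 205, 267 and 432 against 3.59, 25.5 and 13.6 (log2 fold change -4.57 ± 0.62, adjusted p = 0.0136).

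The largest rises included genes with little signal in the controls. FCGRT, the neonatal Fc receptor that carries IgG and albumin across epithelia, was at 16.8, 4.56 and 0 in the controls and 175, 126 and 161 in the labelled knockdown (log2 fold change 5.05 ± 0.91, adjusted p = 0.0316). NGFR, the p75 neurotrophin receptor, was at 38.2, 8.93 and 5.54 against 399, 130.4 and 265 (log2 fold change 4.14 ± 0.69, adjusted p = 0.0244), and control a was the highest control for both. PLAT, tissue plasminogen activator, rose from 438, 126 and 65.1 to 2871, 1635 and 1768 (log2 fold change 3.71 ± 0.60, adjusted p = 0.0228). ARHGAP25, a RAC GTPase activating protein mainly known from blood cells, was at 65.3, 80.0 and 25.2 against 625, 704 and 661 (log2 fold change 3.67 ± 0.40, adjusted p = 0.00803) and kept its call in all 6 fits with a library left out. The transcription factor gene OSR1 was at 114, 96.9 and 36.5 against 759, 854 and 899 (log2 fold change 3.48 ± 0.40, adjusted p = 0.00803), a 10.2-fold ratio of means. ZBTB7C (3.40 ± 0.51), the collagen gene COL16A1 (3.47 ± 0.61), the potassium channel gene KCNK2 (3.38 ± 0.67), the collagen-binding receptor gene MRC2 (3.17 ± 0.43) and the long noncoding RNA LINC03080 (3.83 ± 0.39) were also among the 15.

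A set of 3 CEACAM genes fell, which encode cell surface adhesion proteins of the immunoglobulin family and sit together on chromosome 19. CEACAM5 was at 146, 97.8 and 136 in the controls and 3.63, 0 and 2.35 in the labelled knockdown (log2 fold change -5.66 ± 0.61, adjusted p = 0.00803). CEACAM6 was at 638, 686 and 781 against 6.62, 41.5 and 33.9 (log2 fold change -4.96 ± 0.59, adjusted p = 0.00919). CEACAM1, chosen after its values were seen, was at 1420.5, 2356 and 3012 against 235, 513 and 293 (log2 fold change -2.71 ± 0.35, adjusted p = 0.0124). No group overlapped another in any of the 3, and CEACAM5 and CEACAM6 kept their call with each library left out. The family shares long stretches of sequence, so reads could have been divided between members by the authors' pseudo-alignment. The start regions of the first pair are shown because the genes are neighbours that fell together, from 250 bases before to 50 after the start in RefSeq (build GRCh38.p14, plus strand, chr19:41708376-41708675 and chr19:41755280-41755579), with each CG in capitals.
CEACAM5: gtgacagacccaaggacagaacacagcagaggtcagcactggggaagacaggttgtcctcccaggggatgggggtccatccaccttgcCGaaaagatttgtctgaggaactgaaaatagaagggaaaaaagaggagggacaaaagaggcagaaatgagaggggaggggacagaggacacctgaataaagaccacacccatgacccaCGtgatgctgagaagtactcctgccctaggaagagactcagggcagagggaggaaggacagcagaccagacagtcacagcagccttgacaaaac
CEACAM6: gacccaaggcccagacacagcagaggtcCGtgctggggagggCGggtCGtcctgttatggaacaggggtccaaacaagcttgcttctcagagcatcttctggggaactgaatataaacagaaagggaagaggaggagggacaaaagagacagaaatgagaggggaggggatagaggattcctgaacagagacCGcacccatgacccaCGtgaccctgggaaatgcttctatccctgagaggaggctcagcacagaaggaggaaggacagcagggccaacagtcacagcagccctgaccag
The CEACAM5 window held 2 CG and the CEACAM6 window 5, their longest shared run was 21 bases, and each held 1 copy of the E-box CACGTG, which reads the same on both strands. This motif was in 9.35% of the 15404 windows of equal length around the starts of tested genes, in 8.38% of those of the genes that rose and in 6.52% of those of the genes that fell.

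Amino acid metabolism genes were among the falls, led by both enzymes of transsulfuration, the route by which homocysteine is turned into cysteine. Of 42 tested genes of the amino acid stress response, a programme driven by the transcription factor ATF4, 4 (9.52%) were lower and none higher, and the list's median log2 fold change was -0.40. CTH, cystathionine gamma-lyase, was at 147, 337 and 362 in the controls and 14.6, 22.5 and 12.8 in the labelled knockdown (log2 fold change -3.94 ± 0.42, adjusted p = 0.00803). CBS, cystathionine beta-synthase, was at 152, 234 and 238 against 18.7, 19.98 and 11.1 (log2 fold change -3.58 ± 0.35, adjusted p = 0.00704). The ratio of control to labelled knockdown means was 17.0 for CTH and 12.5 for CBS, and both kept their call with each library left out.

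Smaller falls were seen in PHGDH, the first enzyme of serine synthesis, with 4661, 6798 and 8564 against 2888, 3364 and 2960.3 (log2 fold change -1.08 ± 0.22, adjusted p = 0.0468), and in CARS1, the cysteinyl-tRNA synthetase (-0.78 ± 0.16, adjusted p = 0.0441). Both lost their call in 5 of the 6 fits with a library left out. With the replicate block 10 members were lower and 1 higher, the added falls being ATF3, CHAC1, ASNS, ALDH1L2, SLC1A4 and GARS1. ASNS, asparagine synthetase, was at 3995, 6924 and 7682 against 3411, 2299.6 and 3299.7, with a change of -1.01 ± 0.24 (adjusted p = 0.0421 with the block and 0.0938 without). The 1 rise was DDIT4, an inhibitor of mTOR signalling, at 0.67 ± 0.15 (adjusted p = 0.0361 with the block and 0.143 without). ATF4 itself was at 21892, 16430 and 19938 in the controls and 18030, 17485 and 19022 in the labelled knockdown, with overlapping groups (log2 fold change -0.09 ± 0.16, adjusted p = 0.831). Of related mitochondrial genes chosen after their values were seen, PCK2 fell, at -1.42 ± 0.24 (adjusted p = 0.026) and MTHFD1L at -1.01 ± 0.19 (adjusted p = 0.0356). MAT1A, which makes S-adenosylmethionine and is mainly a liver enzyme, was chosen in the same way and rose from 9.63, 5.22 and 3.82 to 66.9, 39.1 and 96.8 (log2 fold change 3.24 ± 0.50, adjusted p = 0.0184).

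The start regions of CTH and CBS are shown for the same reason, as a pair of one pathway that fell together (GRCh38.p14, chr1:70411018-70411317 on the plus strand and chr21:43076328-43076627 on the minus strand, CG in capitals).
CTH: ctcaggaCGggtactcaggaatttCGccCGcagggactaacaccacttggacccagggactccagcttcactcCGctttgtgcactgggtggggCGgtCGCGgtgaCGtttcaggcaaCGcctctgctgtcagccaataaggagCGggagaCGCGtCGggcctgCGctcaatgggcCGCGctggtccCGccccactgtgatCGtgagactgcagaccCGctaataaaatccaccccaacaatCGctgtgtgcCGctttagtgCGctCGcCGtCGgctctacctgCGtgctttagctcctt
CBS: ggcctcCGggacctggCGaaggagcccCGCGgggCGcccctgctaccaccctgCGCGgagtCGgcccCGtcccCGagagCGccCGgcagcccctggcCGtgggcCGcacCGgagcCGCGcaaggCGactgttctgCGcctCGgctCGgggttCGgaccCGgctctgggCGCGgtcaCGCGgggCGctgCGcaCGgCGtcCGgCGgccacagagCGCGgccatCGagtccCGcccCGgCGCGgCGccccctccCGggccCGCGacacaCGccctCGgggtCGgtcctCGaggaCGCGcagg
They held 26 and 50 CG, and their longest shared run was 10 bases. The ATF4 composite element was searched as TGATGCAA on both strands. It was in neither window, and it was in 0.461% of the windows of all tested genes, in 2 of those of the 179 genes that rose (1.12%) and in 2 of those of the 230 that fell (0.87%).

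Windows with few CG were more frequent among called genes than among all tested genes. The median number of CG in 300 bases was 26 over all 15404 windows, 25 for the 179 genes that rose and 23 for the 230 that fell. Windows with 5 or fewer CG made up 12.1% of all, 18.4% of those of genes that rose and 23.5% of those of genes that fell. The TATA box, searched as TATAAA on both strands, was in 7.19%, 10.1% and 15.7% of the same sets. For genes called with the replicate block the median number of CG was 25 in those higher and 27 in those lower, windows with 5 or fewer CG made up 18.35% and 17.03%, and windows with TATAAA 10.55% and 11.58%. In the Ensembl canonical transcripts the pentamer GGACT, a common form of the m6A consensus, had a median density per kilobase of 0.91 over all tested genes, 0.99 in genes that rose and 1.05 in genes that fell. The median transcript length was 2984 bases over all, 4016 in genes that rose and 2526 in genes that fell. These are descriptions without a test, and presence of a pentamer does not show that it is methylated.

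**Figure D2:**
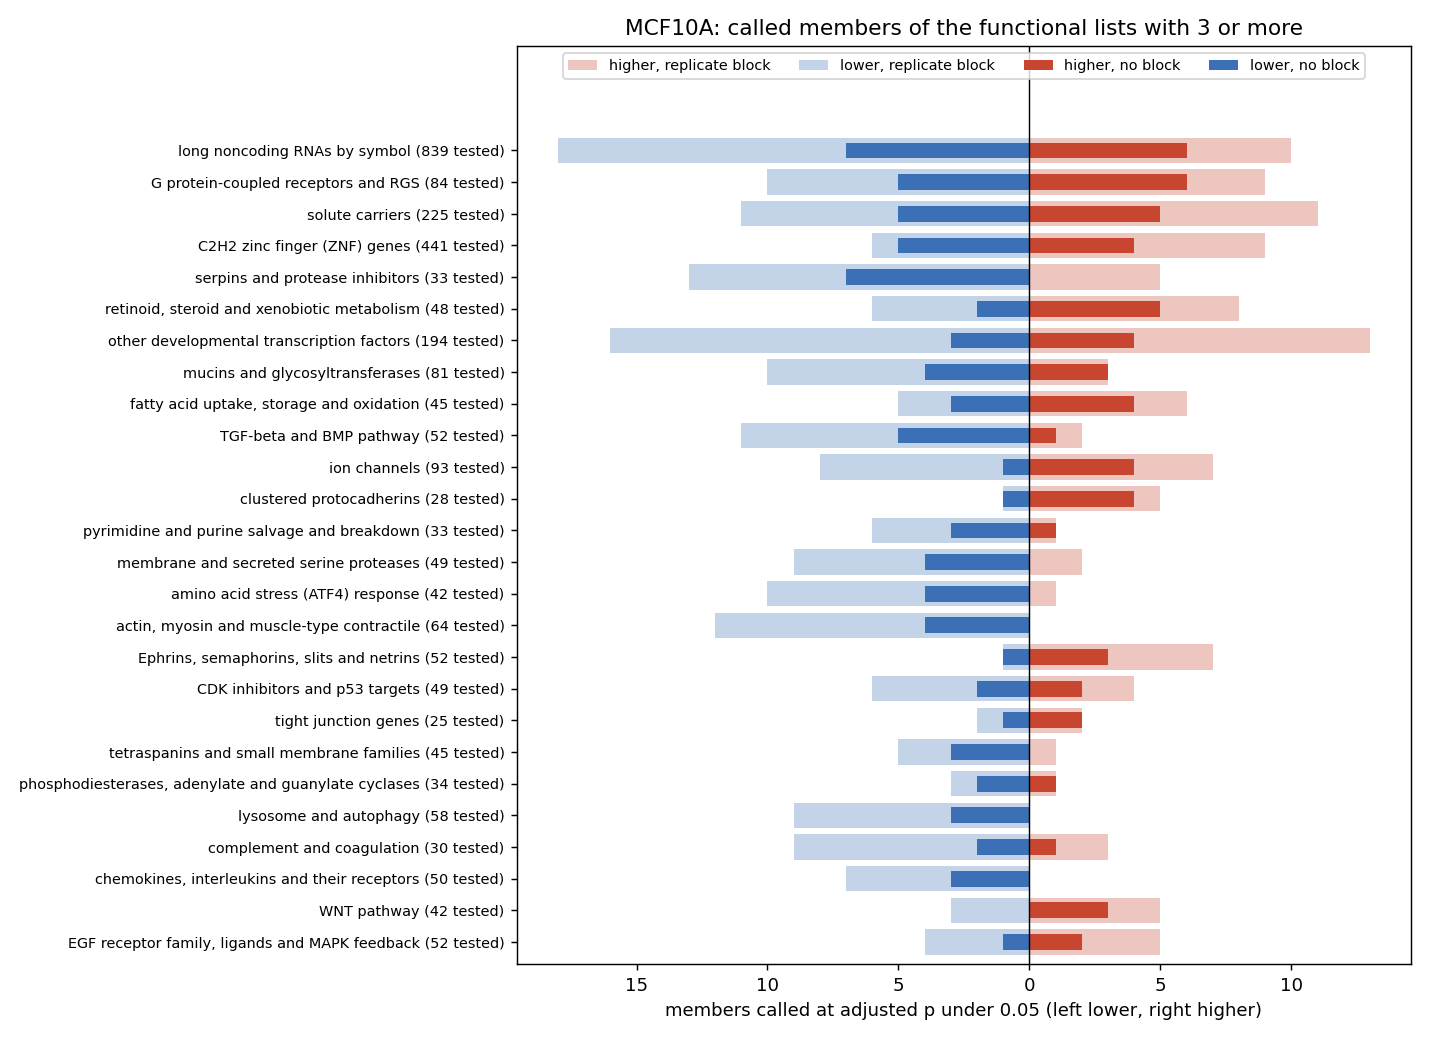
Number of members of each functional list called differentially expressed at an adjusted p under 0.05, to the left when lower and to the right when higher in the labelled knockdown, for lists with 3 or more called members, with 1 list left out. Dark bars are the fit without and pale bars the fit with the replicate block, and the number of tested members follows each name. Serpins and protease inhibitors, actin and contractile genes and lysosome genes have called members only on the lower side without the block, and the block adds 5 higher members to the first of these.

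Protease inhibitors had the largest share of called members among lists with more than 15 tested genes. Of 33 tested serpins and other protease inhibitors 7 were lower (21.2%) and none higher, and the list's median log2 fold change was -0.35. SERPINB2, the inhibitor of urokinase known as PAI-2, was at 2094, 3648 and 1445 against 329, 690.2 and 216 (log2 fold change -2.60 ± 0.46, adjusted p = 0.0289). PI3, the elastase inhibitor elafin, was at 483, 923 and 1393 against 89.7, 83.7 and 96.4 (log2 fold change -3.23 ± 0.36, adjusted p = 0.00803). Elafin is also a cornified envelope protein and was counted among the keratinization genes too.

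SERPINB1, an inhibitor of neutrophil proteases, fell from 6373, 13077 and 19687 to 2062, 3161 and 2733 (log2 fold change -2.17 ± 0.38, adjusted p = 0.0275). SLPI, the secretory leukocyte protease inhibitor (-1.18 ± 0.17, adjusted p = 0.0154), the alpha-2-macroglobulin relative A2ML1 (-1.09 ± 0.20, adjusted p = 0.0337) and CST6, cystatin M (-3.31 ± 0.69, adjusted p = 0.0489), also fell. PI3 kept its call with each library left out, SERPINB1 in 2 of 6 fits and CST6 in none. With the block 13 members were lower and 5 higher. Among the 5 rises was SERPINA1, alpha-1-antitrypsin, at 1.73 ± 0.28 (adjusted p = 0.0122 with the block and 0.216 without).

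In a list of membrane and secreted proteases that leaves out PLAT and PCSK1, the called members were lower. Of 49 tested membrane and secreted proteases 4 (8.16%) were lower and none higher. They were PRSS21 with 121, 62.7 and 53.1 against 0, 1.64 and 1.61 (log2 fold change -5.30 ± 0.58, adjusted p = 0.00803), CTSV, cathepsin V, with 1759.8, 1308 and 1226 against 216, 316 and 292 (log2 fold change -2.38 ± 0.22, adjusted p = 0.0052), PRSS23 (-2.31 ± 0.42, adjusted p = 0.0316) and the aminopeptidase gene ANPEP (-1.16 ± 0.16, adjusted p = 0.0139). ANPEP was at 16270, 17091 and 15840 in the controls and 7118, 8736 and 6286 in the labelled knockdown. With the block the counts were 9 lower and 2 higher. The kallikrein KLK7, a desquamation protease of the keratinization list, fell from 1069.6, 877 and 596 to 63.8, 148 and 94.5 (log2 fold change -3.08 ± 0.35, adjusted p = 0.00803).

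Fibrinolysis genes moved in both directions. Of 30 tested complement and coagulation genes 1 was higher and 2 were lower (10%), and with the block 3 and 9. The rise was PLAT, given above. TFPI, the inhibitor of the tissue factor pathway, was at 187, 199.7 and 259.8 against 21.1, 21.0 and 23.5 (log2 fold change -3.23 ± 0.28, adjusted p = 0.0052), and PLAUR, the urokinase receptor, at 3748, 3767 and 4509 against 2062, 1622 and 1291 (log2 fold change -1.29 ± 0.19, adjusted p = 0.0172). With the block the tissue factor gene F3 fell, at -0.68 ± 0.12 (adjusted p = 0.0167 with the block and 0.166 without) and the urokinase gene PLAU at -0.997 ± 0.21 (adjusted p = 0.0277 with the block and 0.0877 without). The complement regulators CD55 and CD59 fell, at -1.36 ± 0.19 (adjusted p = 0.00716 with the block and 0.0687 without) and -1.12 ± 0.13 (adjusted p = 0.00462 with the block and 0.0618 without).

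Pyrimidine salvage was marked by a near loss of CDA. CDA, cytidine deaminase, was at 1009.6, 697 and 659 in the controls and 4.48, 19.1 and 14.9 in the labelled knockdown (log2 fold change -6.01 ± 0.48, adjusted p = 0.00406), a ratio of means of 61.4, and it kept its call with each library left out. Of 33 tested genes of pyrimidine and purine salvage and breakdown 3 were lower and 1 higher (12.1%). NT5E, the 5'-nucleotidase CD73, was at 10748, 16524 and 21499 against 2667, 6214 and 5712 (log2 fold change -1.78 ± 0.36, adjusted p = 0.0452). UPP1, uridine phosphorylase, fell, at -1.10 ± 0.22 (adjusted p = 0.0406), and DPYD, which degrades uracil and thymine, rose by 1.07 ± 0.19 (adjusted p = 0.0297). The block brought the count to 6 lower and 1 higher, with GDA, guanine deaminase, at -2.58 ± 0.25 (adjusted p = 0.00275 with the block and 0.0623 without).

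Lipid genes changed toward both sides. Of 45 tested genes of fatty acid uptake, storage and oxidation 4 were higher and 3 lower (15.6%), 6 and 5 with the block. PPARGC1A, the coactivator PGC-1alpha that drives mitochondrial genes, was at 71.2, 96.3 and 32.4 in the controls and 694, 667 and 734 in the labelled knockdown (log2 fold change 3.50 ± 0.37, adjusted p = 0.00803), and it kept its call with each library left out. Its relative PPARGC1B, chosen after its values were seen, was at 371, 568 and 389.8 against 1089.7, 877 and 949 (log2 fold change 1.15 ± 0.21, adjusted p = 0.0316). The fatty acid transporter SLC27A1 rose from 363, 232 and 181 to 1009, 1079 and 767 (log2 fold change 1.92 ± 0.28, adjusted p = 0.0154), in contrast to SLC27A6 above. ACSL4, an acyl-CoA synthetase for polyunsaturated fatty acids, was at 1418, 1934 and 1413 against 3373, 4482 and 4149 (log2 fold change 1.34 ± 0.18, adjusted p = 0.0139), and the lipid droplet gene PLIN4 rose by 1.70 ± 0.30 (adjusted p = 0.0304). The nuclear receptor gene PPARD fell from 1517, 2036 and 3618 to 541, 546 and 603 (log2 fold change -1.99 ± 0.29, adjusted p = 0.0163).

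Few genes of oxidative phosphorylation were called. Of 79 tested nuclear genes of oxidative phosphorylation 1 was called, CYC1, cytochrome c1, at 2268, 1652 and 1722 against 4321, 3883 and 4203 (log2 fold change 1.15 ± 0.16, adjusted p = 0.0143), and the list's median log2 fold change was 0.12. The block added COX6B2 as lower, at -2.015 ± 0.47 (adjusted p = 0.042 with the block and 0.0788 without). None of 15 mitochondrially encoded genes was called, with 0 at an unadjusted p under 0.05.

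A set of 5 detoxification enzymes rose while SULT2B1 and DHRS3 fell. Of 48 tested genes of retinoid, steroid and xenobiotic metabolism 5 were higher and 2 lower (14.6%), 8 and 6 with the block. AKR1B10, an aldo-keto reductase that reduces retinal, was at 42.9, 20.1 and 16.4 against 220.5, 175 and 187 (log2 fold change 2.94 ± 0.39, adjusted p = 0.0126). ALDH3A1, an aldehyde dehydrogenase, was at 145, 68.1 and 34.8 against 386, 311 and 403 (log2 fold change 2.36 ± 0.46, adjusted p = 0.0406). UGT1A6, a glucuronosyltransferase that shares its last exons with the other UGT1A genes, rose by 2.301 ± 0.35 (adjusted p = 0.0172), and CYP1B1, a monooxygenase for estrogens and polycyclic hydrocarbons, by 1.54 ± 0.26 (adjusted p = 0.0248). HPGD, which inactivates prostaglandins, rose by 1.52 ± 0.28 (adjusted p = 0.0333).

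The falls were in DHRS3, a retinal reductase, from 848, 773 and 680.1 to 211, 148 and 128 (log2 fold change -2.26 ± 0.23, adjusted p = 0.00803), and in the sulfotransferase gene SULT2B1 (-3.15 ± 0.62, adjusted p = 0.0399). DHRS3 kept its call with each library left out. Of 42 tested NRF2 and glutathione genes only AKR1B10 was called without the block. With it NQO1, a quinone reductase, was added at 0.92 ± 0.17 (adjusted p = 0.0181 with the block and 0.0518 without), with 1599, 1233 and 961 against 2363, 2290.2 and 2358, and 5 of the list were higher and 1 lower. The hydrogen peroxide producer DUOX1, chosen after its values were seen, was at 82.3, 80.9 and 82.0 against 513, 434 and 525 (log2 fold change 2.57 ± 0.20, adjusted p = 0.00387) and kept its call with each library left out.

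A pair of metallothionein genes fell, and other genes that handle metals moved in both directions. Of 4 tested metallothioneins, which store zinc and copper, 2 were lower, and 3 with the block. The block added MT1X, at -0.62 ± 0.14 (adjusted p = 0.042 with the block and 0.176 without). MT2A was at 44523, 47332 and 61522 against 20913, 30016 and 21509 (log2 fold change -1.09 ± 0.21, adjusted p = 0.0392), and MT1F at 164, 153 and 152 against 43.1, 49.0 and 49.5 (log2 fold change -1.71 ± 0.24, adjusted p = 0.0154). MT1E overlapped between the groups, with 5295, 3248 and 2947 against 4497, 3023 and 3690.3. These genes are close copies, so the division of reads among them is uncertain. LCN2, lipocalin that binds iron-loaded siderophores, fell from 146, 106 and 131 to 39.2, 9.35 and 20.1 (log2 fold change -2.63 ± 0.49, adjusted p = 0.0356), and the metalloreductase STEAP1, at -1.27 ± 0.24 (adjusted p = 0.0373). These were 2 lower of 27 tested genes of iron, copper and zinc handling (7.41%), and with the block 3 were lower and 2 higher. The rises were TFRC, the transferrin receptor, at 0.71 ± 0.14 (adjusted p = 0.0227 with the block and 0.0687 without), and CYBRD1, a ferric reductase, at 0.69 ± 0.15 (adjusted p = 0.0316 with the block and 0.0938 without).

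Called BMP and TGF-beta pathway genes were mostly lower. Of 52 tested members 5 were lower and 1 higher (11.5%), 11 and 2 with the block. BMP6 was at 161, 438 and 1524 against 32.1, 43.5 and 61.3 (log2 fold change -3.40 ± 0.71, adjusted p = 0.0494), with the 3 controls far apart, and kept its call in 1 of 6 fits with a library left out. BMP2 was at 706, 633 and 888 against 227, 238 and 298 (log2 fold change -1.54 ± 0.20, adjusted p = 0.013), and BMP4 went the other way, from 28.3, 20.6 and 24.98 to 67.2, 78.6 and 76.3 (log2 fold change 1.56 ± 0.31, adjusted p = 0.0406). ID1, a direct target of BMP signalling, was at 4180.4, 5349 and 5139 against 1959, 1911 and 1517 (log2 fold change -1.45 ± 0.17, adjusted p = 0.00803) and kept its call with each library left out. TGFBI, a matrix protein induced by TGF-beta, fell, at -1.24 ± 0.21 (adjusted p = 0.0253), and FSTL1 at -1.80 ± 0.36 (adjusted p = 0.0448). With the block INHBA, the activin A subunit, was lower, at -1.42 ± 0.21 (adjusted p = 0.0093 with the block and 0.241 without), as were the antagonists FST and FSTL3, at -0.84 ± 0.15 (adjusted p = 0.0181 with the block and 0.052 without) and -0.97 ± 0.15 (adjusted p = 0.00949 with the block and 0.0682 without).

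In the Notch, WNT and Hedgehog lists the members called without the block were higher. DLL1, a Notch ligand, was at 4.70, 9.02 and 9.32 against 234, 60.3 and 66.1 (log2 fold change 3.56 ± 0.58, adjusted p = 0.0225). NOTCH1 was at 1836, 1996 and 1914 against 6525, 3849.7 and 5381 (log2 fold change 1.42 ± 0.20, adjusted p = 0.0143), and the target HES1 overlapped between groups, with 9775, 9162 and 4678 against 7498, 7126 and 4122. These were 2 of 29 tested Notch pathway genes (6.9%). Of 42 WNT genes 3 were higher (7.14%). SFRP1, a secreted WNT inhibitor, was at 2997, 2946 and 1016 against 7404, 7272 and 7742 (log2 fold change 1.85 ± 0.38, adjusted p = 0.0475), the planar polarity gene PRICKLE2 rose by 1.57 ± 0.23 (adjusted p = 0.0163) and the R-spondin receptor LGR4 by 1.31 ± 0.24 (adjusted p = 0.0347). With the block 5 WNT genes were higher and 3 lower, the latter DVL1, DKK1 and WNT7B. The Hedgehog co-receptors GAS1 and CDON rose by 1.98 ± 0.42 (adjusted p = 0.0498) and 1.88 ± 0.31 (adjusted p = 0.0228), 2 of 28 Hedgehog and Hippo genes tested (7.14%), and the block added GLI3 and LIMD1 as higher. These counts leave out EVC2, the Hedgehog gene given above that was listed at 0 throughout the labelled knockdown.

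Receptor and growth factor signalling showed single large changes. KITLG, stem cell factor, was at 50.8, 113 and 83.6 against 436, 382 and 557 (log2 fold change 2.52 ± 0.32, adjusted p = 0.0118). With NGFR, which was counted in this list although it is not a tyrosine kinase, KITLG made 2 higher of 38 tested receptor tyrosine kinase and ligand genes (5.26%). With the block 3 were higher and 2 lower. Of 52 genes of the EGF receptor family and MAPK feedback 2 rose, EGR3 (2.01 ± 0.34, adjusted p = 0.0259) and SPRY1 (1.41 ± 0.26, adjusted p = 0.0358), and the ERK phosphatase DUSP5 fell (-1.25 ± 0.22, adjusted p = 0.0279). The block brought these counts to 5 higher and 4 lower. EGR1 was at 39191, 38430 and 30993 against 37681, 36580 and 26545 and FOS at 30425, 29344 and 20516 against 33816, 34919 and 19538, both overlapping. CAMK4, calcium/calmodulin-dependent kinase 4, rose from 8.78, 5.15 and 2.17 to 80.0, 149 and 61.0 (log2 fold change 3.98 ± 0.54, adjusted p = 0.0139). PDE4B, a cAMP phosphodiesterase, rose from 52.6, 19.3 and 24.4 to 574, 337 and 235 (log2 fold change 3.57 ± 0.46, adjusted p = 0.0118), while PDE9A, which degrades cGMP, fell, at -2.34 ± 0.40 (adjusted p = 0.0255).

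G protein-coupled receptor and RGS genes were called at 13.1%, 6 higher and 5 lower of 84 tested, 9 and 10 with the block. GPRC5A, an orphan receptor induced by retinoic acid, was at 9427, 17072 and 14556 against 3301, 5049 and 4049 (log2 fold change -1.71 ± 0.25, adjusted p = 0.0163). RGS2, which shortens Gq signalling, was at 1275, 2448 and 1170.4 against 295, 367 and 377 (log2 fold change -2.16 ± 0.28, adjusted p = 0.0128), and the sphingosine phosphate receptor S1PR1 fell, at -2.39 ± 0.48 (adjusted p = 0.0445). On the higher side were the muscarinic receptor CHRM3 (1.74 ± 0.28, adjusted p = 0.0221) and the adhesion receptors ADGRF1 (1.58 ± 0.30, adjusted p = 0.0381) and ADGRG2 (1.56 ± 0.33, adjusted p = 0.0498).

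Called members of the actin list were lower. Of 64 tested actin, myosin and contractile genes 4 were lower and none higher (6.25%), the median log2 fold change was -0.28, and 21 of the 23 members at an unadjusted p under 0.05 were lower. ACTB was at 87508, 111898 and 128836 in the controls and 47267, 55906 and 55110 in the labelled knockdown (log2 fold change -1.04 ± 0.21, adjusted p = 0.0413). TPM4, a tropomyosin, was at 13955, 19800 and 24839 against 8172, 9289 and 8873 (log2 fold change -1.12 ± 0.22, adjusted p = 0.0388). The nonmuscle myosin gene MYH14 (-3.48 ± 0.45, adjusted p = 0.0124) and FHL1 (-2.92 ± 0.61, adjusted p = 0.0492) also fell. ACTB, TPM4 and FHL1 each kept their call in 1 of 6 fits with a library left out.

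With the block 12 members were lower and none higher. They included the filamin gene FLNA, with 24494, 25786 and 33426 against 17932, 16870 and 17235 and a change of -0.67 ± 0.14 (adjusted p = 0.0312 with the block and 0.0805 without). ACTG1 was at 74103, 75383 and 87177 against 46676, 51012 and 46946 and fell only with the block, at -0.71 ± 0.14 (adjusted p = 0.0252 with the block and 0.0711 without). PAK3, a kinase activated by RAC and CDC42, rose from 29.4, 40.9 and 23.1 to 209.7, 243 and 172 (log2 fold change 2.73 ± 0.31, adjusted p = 0.00803), and the exchange factor VAV3 by 1.72 ± 0.30 (adjusted p = 0.0276). RHOF fell from 1959, 1892 and 2618 to 809, 944 and 791 (log2 fold change -1.33 ± 0.18, adjusted p = 0.0126). ARHGEF25 was at 35.4, 26.2 and 9.81 in the controls and listed at 0 in all 3 labelled knockdown libraries. Of 9 tested annexins, membrane proteins that bind calcium, none was called without the block, with 5 at an unadjusted p under 0.05, and 4 were lower with it. ANXA1 was the most abundant of these 4, at 32552, 32797 and 26870 against 20590, 20912 and 14541, with -0.73 ± 0.13 (adjusted p = 0.016 with the block and 0.0926 without).

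Cell junction and guidance genes changed gene by gene. GJA1, connexin 43, fell from 280.2, 172 and 159 to 18.4, 12.5 and 24.5 (log2 fold change -3.39 ± 0.37, adjusted p = 0.00803) and kept its call with each library left out, while GJA3 rose (2.38 ± 0.38, adjusted p = 0.0212). The tight junction gene CLDN1 rose from 2128, 1913 and 1473 to 7119, 3088 and 5270.1 (log2 fold change 1.42 ± 0.30, adjusted p = 0.049), PARD6G rose (1.85 ± 0.28, adjusted p = 0.0172) and CLDN7 fell (-0.96 ± 0.17, adjusted p = 0.0281). Of 52 ephrin, semaphorin, slit and netrin pathway genes 3 were higher and 1 lower (7.69%), 7 and 1 with the block. SEMA3C was at 504, 728 and 631 against 2568, 1875 and 2207 (log2 fold change 1.84 ± 0.19, adjusted p = 0.00803), SEMA4A rose (2.67 ± 0.51, adjusted p = 0.0377), ROBO1 rose (0.98 ± 0.17, adjusted p = 0.0273) and SEMA7A fell from 197, 233 and 438 to 21.2, 37.3 and 13.6 (log2 fold change -3.56 ± 0.45, adjusted p = 0.011). CADM1, a synaptic and epithelial adhesion protein, fell from 44.7, 90.5 and 66.7 to 0.62, 0.83 and 3.52 (log2 fold change -4.79 ± 0.56, adjusted p = 0.00833). CDH1, E-cadherin, was at 4836, 8321 and 7843 against 6289, 5209 and 6535, with overlapping groups (log2 fold change -0.19 ± 0.22, adjusted p = 0.715). CDH2, N-cadherin, was near the filter at 10.9, 13.8 and 14.5 against 7.80, 6.24 and 9.69 and was called in neither fit (log2 fold change -0.66 ± 0.44, adjusted p = 0.481). Both VIM, vimentin, and MMP2, a gelatinase, passed the threshold only with the block, at -0.93 ± 0.22 (adjusted p = 0.0421 with the block and 0.113 without) and 2.63 ± 0.35 (adjusted p = 0.00587 with the block and 0.0576 without).

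Clustered protocadherins, adhesion proteins of neurons encoded in a gene array on chromosome 5, were called at 17.9%, 4 higher and 1 lower of 28 tested, and the list's median log2 fold change was 0.48. PCDHB10 was at 10.9, 19.5 and 15.4 against 147, 78.5 and 147 (log2 fold change 2.92 ± 0.39, adjusted p = 0.013). PCDHB11 was at 12.7, 28.9 and 40.7 against 197, 135 and 108 (log2 fold change 2.47 ± 0.46, adjusted p = 0.0343). PCDHB16 (2.86 ± 0.51, adjusted p = 0.0316) and PCDHGA10 (1.37 ± 0.28, adjusted p = 0.0441) also rose, and PCDHGB2 fell (-1.66 ± 0.28, adjusted p = 0.0259). Gamma genes share their last exons and beta genes are close copies, so reads could be assigned to the wrong member.

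Glycosylation genes were called at 8.64% of 81 tested mucins and glycosyltransferases, 3 higher and 4 lower, 3 and 10 with the block. GALNT12, which starts mucin-type O-glycans, was at 16.6, 44.1 and 80.6 in the controls and listed at 0 in all 3 labelled knockdown libraries. GCNT3, which branches them, was at 82.7, 80.1 and 82.0 against 3.15, 4.27 and 8.49 (log2 fold change -3.80 ± 0.43, adjusted p = 0.00803). The Lewis antigen gene FUT3 (-1.66 ± 0.32, adjusted p = 0.0406) and the sialyltransferase gene ST6GALNAC3 (-5.29 ± 1.07, adjusted p = 0.0444) fell. SULF1, which removes sulfate from heparan sulfate, rose from 3.58, 3.30 and 5.20 to 28.8, 37.4 and 48.0 (log2 fold change 2.95 ± 0.43, adjusted p = 0.0165), with SULF2 (1.04 ± 0.21, adjusted p = 0.0459) and CHST3 (1.07 ± 0.20, adjusted p = 0.0376).

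Membrane transport genes were called at 4.44%, 5 higher and 5 lower of 225 tested solute carriers, 11 and 11 with the block. SLC2A3, the glucose transporter GLUT3, was at 813, 907 and 885 against 26.8, 113 and 39.8 (log2 fold change -4.10 ± 0.46, adjusted p = 0.00803). Without the block it was the 1 gene called of 25 tested in glycolysis. The block added PFKP, at -0.74 ± 0.14 (adjusted p = 0.0198 with the block and 0.0666 without). GAPDH overlapped between groups, with 171418, 107992 and 108524 against 141819, 117800 and 130591. The glutamate transporter SLC1A3 (1.59 ± 0.29, adjusted p = 0.0316) and the amino acid transporter SLC43A2 (1.61 ± 0.33, adjusted p = 0.0455) rose. CLCA2, a regulator of chloride currents and a p53 target in breast epithelium, was at 2450.0, 3101 and 1346 against 9367, 8189 and 11767 (log2 fold change 2.15 ± 0.30, adjusted p = 0.0139), and of 93 ion channel genes 4 were higher and 1 lower (5.38%), 7 and 8 with the block. The neighbouring transporter genes ABCA9 (1.67 ± 0.33, adjusted p = 0.0406) and ABCA10 (2.18 ± 0.38, adjusted p = 0.0279) both rose. Of 33 tested ABC transporters 2 were higher (6.06%), and with the block 4 were higher and 1 lower.

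Inflammatory cytokine genes were among the falls. Of 50 tested chemokines, interleukins and receptors 3 were lower and none higher (6%), 7 and none with the block. IL1B was at 902, 1418 and 3392 against 228, 268 and 239.9 (log2 fold change -2.73 ± 0.42, adjusted p = 0.0184), and CXCL8, the neutrophil chemokine interleukin 8, at 604, 752 and 543 against 257, 73.0 and 83.2 (log2 fold change -2.42 ± 0.45, adjusted p = 0.0338). IL18R1, chosen after its values were seen, fell, at -2.88 ± 0.45 (adjusted p = 0.0193), and so did TREM1 (-1.97 ± 0.36, adjusted p = 0.0331), an amplifier of inflammatory signalling. TNFRSF11B, osteoprotegerin, rose from 9.98, 16.2 and 5.95 to 71.7, 102 and 54.6 (log2 fold change 2.77 ± 0.45, adjusted p = 0.0228). Without the block it was the 1 gene called of 39 in NF-kB and TNF signalling. The block added TNFRSF21 as higher and NFKBIA as lower. Among 37 MHC and antigen processing genes FCGRT and TAPBPL (2.14 ± 0.41, adjusted p = 0.0376) rose, and the block gave 3 higher and 6 lower. HLA-B fell only with the block, from 1545, 548 and 974 to 598, 168 and 362 at -1.50 ± 0.17 (adjusted p = 0.00382 with the block and 0.161 without).

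Of 194 tested developmental transcription factor genes outside the homeobox lists 4 were higher and 3 lower (3.61%), and with the block 13 and 16 (14.9%). TP73, a p53 relative, was at 5.41, 6.79 and 3.09 in the controls and 174, 57.2 and 67.6 in the labelled knockdown (log2 fold change 3.91 ± 0.52, adjusted p = 0.013). CDKN1C, a maternally expressed CDK inhibitor, fell from 85.0, 41.4 and 52.6 to 5.10, 6.97 and 6.93 (log2 fold change -2.995 ± 0.42, adjusted p = 0.0143), the growth-restraining gene BTG1 fell (-0.68 ± 0.12, adjusted p = 0.0322) and SESN1 rose (1.11 ± 0.21, adjusted p = 0.0356), which made 2 higher and 2 lower of 49 CDK inhibitors and p53 targets (8.16%), or 4 and 6 with the block. SESN3, chosen after its values were seen, rose from 32.2, 48.5 and 54.5 to 275, 221 and 207 (log2 fold change 2.37 ± 0.29, adjusted p = 0.0105). PRDM1, the repressor BLIMP1, was at 678, 1339 and 973 against 184, 119 and 115 (log2 fold change -2.81 ± 0.30, adjusted p = 0.00803), and kept its call with each library left out. The clock genes HLF (1.92 ± 0.36, adjusted p = 0.0358) and BHLHE41 (1.15 ± 0.22, adjusted p = 0.0358) rose, 2 of 20 tested, and with the block 4 clock genes were higher and 2 lower.

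Among chromatin genes CBX6, a Polycomb subunit, rose by 0.92 ± 0.15 (adjusted p = 0.0228). Of those chosen after their values were seen, the histone variant gene MACROH2A2 fell from 203, 147 and 183 to 9.91, 24.4 and 17.0 (log2 fold change -3.37 ± 0.38, adjusted p = 0.00803). The nucleosome remodeller SMARCA1 fell from 192, 144 and 199.6 to 14.7, 23.6 and 34.3 (log2 fold change -2.90 ± 0.37, adjusted p = 0.0116), and the chromatin protein gene HMGA1 from 24034, 20054 and 23923 to 7753, 11495 and 9797 (log2 fold change -1.24 ± 0.18, adjusted p = 0.0168). C2H2 zinc finger genes were called at 2.04% of 441, 4 higher and 5 lower, and with the block 9 and 6. ZNF256 was at 35.6, 38.0 and 49.5 in the controls and listed at 0 in all 3 labelled knockdown libraries, and ZNF140 rose from 2.52, 6.47 and 2.23 to 46.6, 46.4 and 58.6 (log2 fold change 3.54 ± 0.48, adjusted p = 0.0131). Long noncoding RNAs by symbol were called at 1.55% of 839, 6 higher and 7 lower, and with the block 10 and 18. ELFN1-AS1 rose from 0, 0 and 4.66 to 65.8, 47.7 and 63.2 (log2 fold change 5.06 ± 0.73, adjusted p = 0.0154) and LINC00520 fell from 487, 516 and 1294 to 55.1, 129 and 179.7 (log2 fold change -2.65 ± 0.50, adjusted p = 0.0376). The strand setting of the authors' counting is not given in the sources used here, so reads of an antisense RNA and of its partner might not be separated.

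Lysosome, autophagy and small membrane protein genes were called on the lower side alone without the block. MAP1LC3A, a homologue of the autophagosome protein LC3B, was at 26.7, 21.96 and 34.0 against 0.97, 0 and 1.74 (log2 fold change -4.004 ± 0.57, adjusted p = 0.0154), and with CTSV and ATG7 (-0.79 ± 0.15, adjusted p = 0.0399), an enzyme of autophagosome formation, it made 3 of 58 tested genes (5.17%). With the block 9 were lower and none higher, including NPC1, a lysosomal cholesterol exporter, at -1.05 ± 0.20 (adjusted p = 0.0195 with the block and 0.104 without). TSPAN15, a tetraspanin that directs the sheddase ADAM10, fell from 25.8, 12.5 and 21.3 to 0, 1.01 and 2.47 (log2 fold change -3.39 ± 0.64, adjusted p = 0.0371), and with PLAUR and LY6K (-0.97 ± 0.16, adjusted p = 0.0244) it made 3 of 45 in its list (6.67%), 5 lower and 1 higher with the block.

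Other lists gave few calls without the block. IGFBP2, an IGF binding protein, rose from 306, 99.1 and 96.0 to 1664, 591 and 983 (log2 fold change 2.78 ± 0.51, adjusted p = 0.0337). LHX5, a homeobox factor of the developing forebrain, fell from 32.0, 18.1 and 30.8 to 1.81, 0 and 0 (log2 fold change -4.27 ± 0.63, adjusted p = 0.0163), and so did MEIS3 (-1.75 ± 0.26, adjusted p = 0.0172), 2 of 53 tested homeobox genes outside the HOX clusters. The calcium pathway inhibitor CAMK2N2 (-1.83 ± 0.25, adjusted p = 0.0139), the kinesin KIF21B (-1.86 ± 0.39, adjusted p = 0.0498), the repair nuclease subunit ERCC1 (-1.11 ± 0.17, adjusted p = 0.0173) and the cochaperone DNAJB5 (-2.98 ± 0.42, adjusted p = 0.015) were lower. BCL6, a transcriptional repressor, rose by 1.08 ± 0.22 (adjusted p = 0.0475). Of 51 apoptosis regulators none was called without the block, with 15 at an unadjusted p under 0.05, and with it 2 were higher and 5 lower, among them MCL1, a survival protein, at -0.89 ± 0.14 (adjusted p = 0.0108 with the block and 0.054 without). Of 14 S100 genes none was called without the block, with 7 at an unadjusted p under 0.05. With it S100A8 and S100A9, which form calprotectin, rose by 2.74 ± 0.44 (adjusted p = 0.0111 with the block and 0.132 without) and 2.25 ± 0.38 (adjusted p = 0.0137 with the block and 0.207 without).

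Several central functions had no called member. None of 80 cytosolic ribosomal protein genes was called, and none reached an unadjusted p under 0.05. None of 139 splicing factors was called, with 4 at an unadjusted p under 0.05, all lower, and 1 was called with the block, RBM3. None of 18 HOX genes (3 at an unadjusted p under 0.05), 27 ER chaperones (4), 36 genes of cholesterol and fatty acid synthesis (4) and 29 hypoxia genes (10) was called, although 3 of the synthesis genes and 4 of the hypoxia genes were called with the block. HNRNPA2B1, an RNA-binding protein with a role in m6A biology, was at 9796, 13932 and 13072 against 10352, 13253 and 12215.

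Mitosis genes had the largest median difference of any functional list without a call. The median log2 fold change was 0.92 for 68 mitosis genes and 0.40 for 59 genes of G1/S and DNA replication, and none was called with or without the block, with 3 and 2 at an unadjusted p under 0.05. The 21 tested replication-dependent histone genes went the other way, with a median of -0.57 and 8 at an unadjusted p under 0.05, all lower, and none was called with or without the block. Their summed level was between 2618 and 2838 in the controls and between 1936 and 2040.3 in the labelled knockdown. The proliferation marker MKI67, chosen after its values were seen, was at 1144, 228 and 40.2 in the controls and 262, 1202 and 443 in the labelled knockdown. TOP2A was at 954, 157 and 25.4 against 449.7, 817 and 548. In both genes control a was among the highest and control c the lowest of the 6 libraries, and the groups overlapped. The part of these differences between control libraries in the other results was not tested.

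**Figure D3:**
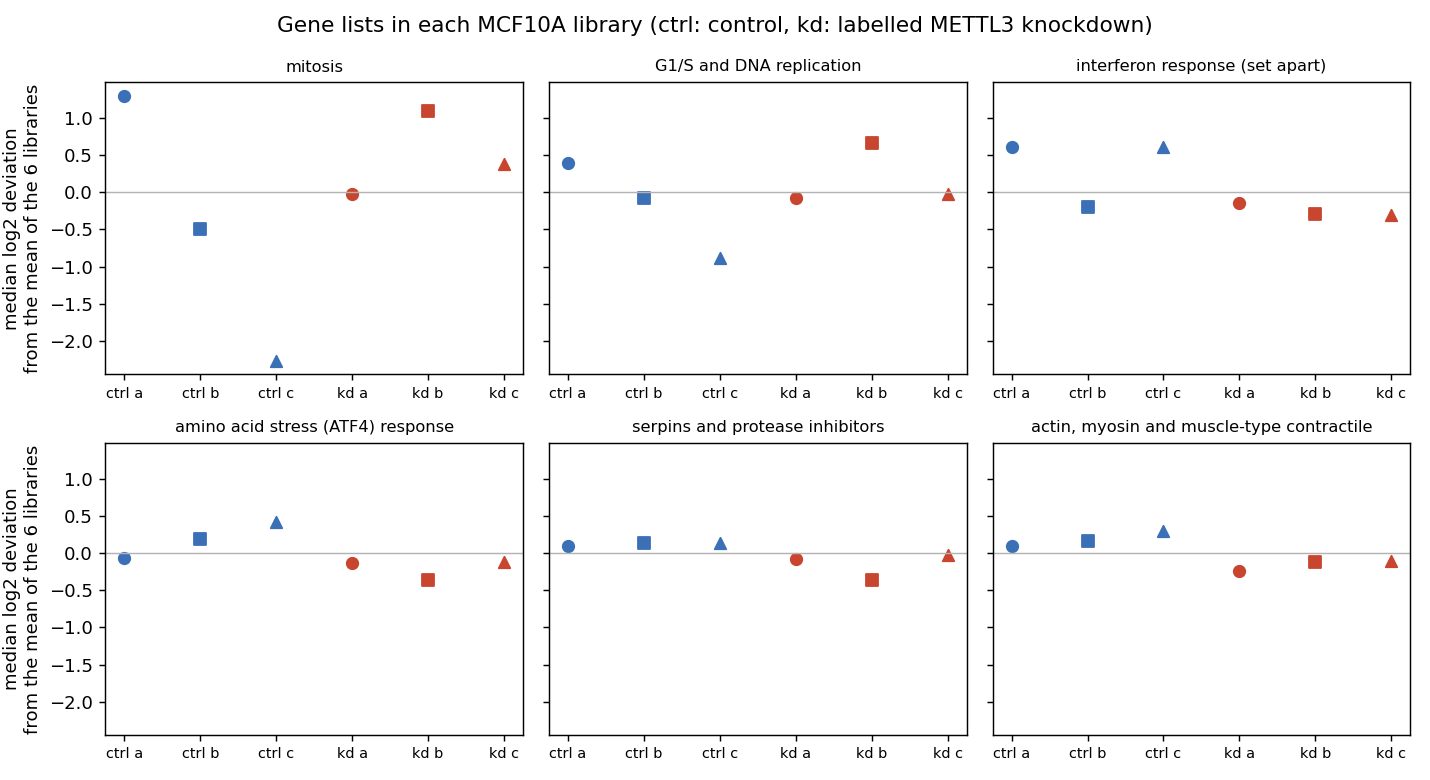
Median log2 deviation of the tested members of 6 gene lists from their mean over the 6 libraries, for each control (ctrl, blue) and labelled knockdown (kd, red) library. The mitosis list spans from -2.26 in control c to 1.30 in control a, a wider range than any of the other 5 lists shown.

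Changed genes lay on all 23 chromosomes described. The median log2 fold change of the tested genes of a chromosome was between -0.052 and 0.034 over the autosomes and the X chromosome. The share of tested genes called was between 1.197% on chromosome 16 and 4.40% on chromosome 20.

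Several genes of unrelated function, chosen after their values were seen, went from near 0 to a clear signal. SORCS2, a sorting receptor that partners with NGFR, was at 0, 0.56 and 0 in the controls and 46.0, 31.1 and 33.3 in the labelled knockdown (log2 fold change 5.00 ± 0.52, adjusted p = 0.00803). ACMSD, an enzyme of tryptophan breakdown, was at 0, 2.45 and 1.86 against 75.7, 68.5 and 52.4 (log2 fold change 4.94 ± 0.58, adjusted p = 0.00833). MAP2K6, an activating kinase of p38, was at 1.70, 5.55 and 0.53 against 91.7, 44.9 and 45.9 (log2 fold change 4.28 ± 0.63, adjusted p = 0.0163). IFNLR1, a receptor chain for interferon lambda, rose (3.26 ± 0.49, adjusted p = 0.0173), and so did the lectin-like receptor genes KLRG2 (4.56 ± 0.60, adjusted p = 0.013) and KLRC2 (4.35 ± 0.85, adjusted p = 0.0399). SORL1, another sorting receptor (2.01 ± 0.31, adjusted p = 0.0184), PCSK1, a prohormone convertase (2.76 ± 0.58, adjusted p = 0.0498), and MAOB, monoamine oxidase B (1.898 ± 0.37, adjusted p = 0.0406), were also higher. CD24, a surface glycoprotein used to sort breast epithelial cells, fell from 2052, 2112 and 1494 to 449, 523 and 486 (log2 fold change -1.94 ± 0.18, adjusted p = 0.00523) and kept its call with each library left out.

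The effect in MCF10A differed from that in the other 2 lines for many genes. In 1 fit of the 18 libraries, the MCF10A effect differed from the MCF10AT1 effect in 3437 of 15897 genes (21.6%) and from the MCF10CA1h effect in 849 (5.34%). Of the 399 MCF10A genes called above that were in this fit, 252 (63.2%) differed from MCF10AT1 and 248 (62.2%) from MCF10CA1h, and these genes had been chosen for their change in MCF10A. Among them the sign was opposite in 191 and 215. With the block the second count was 1283. It was 482 without control c and 497 without labelled knockdown a of MCF10A.

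**Figure D4:**
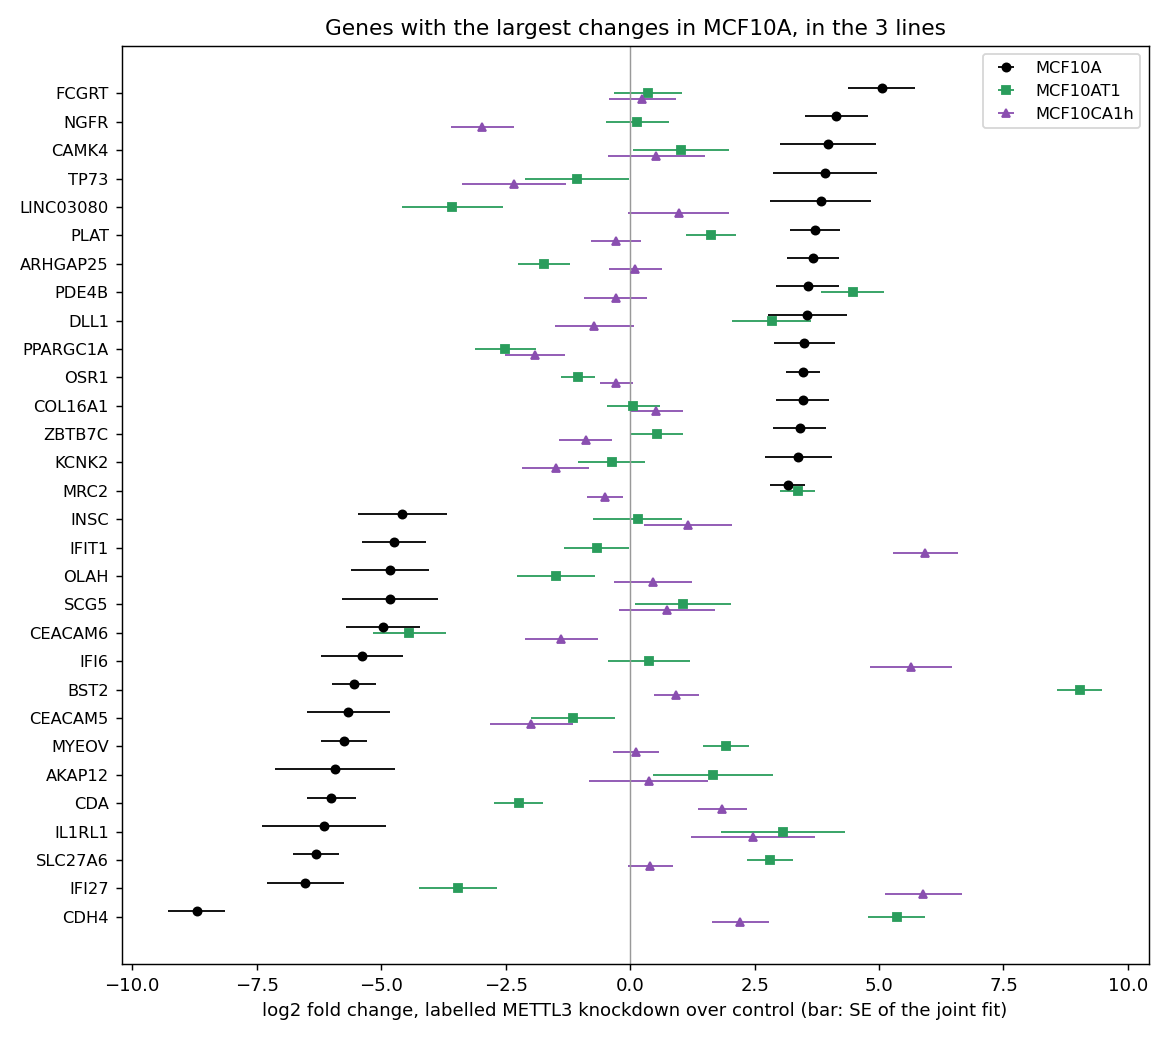
Log2 fold change of labelled METTL3 knockdown over control for the 30 genes with the largest changes in MCF10A, in MCF10A (black circles), MCF10AT1 (green squares) and MCF10CA1h (purple triangles). Bars are the SE of the joint fit of 18 libraries, and CDH4 lies at -8.70 in MCF10A and at 5.35 in MCF10AT1.

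CDH4 fell in MCF10A and rose in MCF10AT1, with a log2 fold change of 5.35 ± 0.57 (adjusted p = 2.08e-06) there. CEACAM6, MRC2, DLL1 and PDE4B did not differ between these 2 lines beyond the threshold. Their MCF10AT1 values were -4.43 ± 0.74 (adjusted p = 0.000216), 3.37 ± 0.36 (adjusted p = 1.84e-06), 2.85 ± 0.79 (adjusted p = 0.0113) and 4.47 ± 0.64 (adjusted p = 4.62e-05). The difference between the lines was -0.53 ± 1.04 (adjusted p = 0.762) for CEACAM6 and -0.20 ± 0.50 (adjusted p = 0.815) for MRC2. CBS rose in MCF10AT1 by 3.82 ± 0.84 (adjusted p = 0.00232), and CTH was at 0.08 ± 0.52 (adjusted p = 0.929) there. NOTCH1 fell in MCF10AT1, at -2.04 ± 0.27 (adjusted p = 1.95e-05), and DUOX1 at -3.34 ± 0.37 (adjusted p = 3.51e-06). In MCF10CA1h IFI27 and IFIT1 rose, by 5.89 ± 0.78 (adjusted p = 0.00068) and 5.93 ± 0.65 (adjusted p = 0.000187), while CDA was at 1.85 ± 0.49 (adjusted p = 0.0813) and PPARGC1A at -1.91 ± 0.61 (adjusted p = 0.172). CAMK4 and CEACAM6 were the only ones of the 30 genes with the largest changes in MCF10A whose effect passed the threshold in neither test of the difference. From MCF10CA1h the difference was 3.45 ± 1.36 (adjusted p = 0.182) for CAMK4 and -3.58 ± 1.04 (adjusted p = 0.0574) for CEACAM6.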

How the data were processed

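RNA was sequenced from cultured cells, with 3 MCF10A libraries of the negative CRISPR control and 3 labelled METTL3 knockdown, out of 18 libraries in 3 lines. The labels give polyA RNA while the protocol describes a stranded total RNA kit with ribosomal depletion, which is not settled here. According to the submitters' processing notes the authors used kallisto 0.46.1, R 4.1.1 and DESeq2 1.26.0 with hg38. The deposited values are normalized counts, a signal scaled across the 18 libraries, and not raw reads. Between 40.2% and 46.5% of low values per library lay at whole multiples of the commonest low value, so reads were not recovered, the depth behind a value is unknown, no count test was run and precision comes from the replicates alone. The table held 0 columns of other samples.

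Groups came from the labels. Genes averaging 10 or more across the 6 MCF10A libraries were tested on log2(value + 1) with limma 3.58.1 in R 4.3.3 (empirical Bayes with an intensity trend), two-sided, with Benjamini-Hochberg adjustment over all 15416 genes and a threshold of 0.05. Symbols matched 35894 of 35933 genes. Of 33141 genes above 0 in any library, 17725 did not pass the filter. A fold change on this scale understates the change of low genes. Nothing states that replicates are separate cultures, so p-values measure the spread between these libraries, which may be technical. Deviations from the group means correlated at 0.233, 0.227 and 0.130 between libraries of letter a, b and c, and at most at 0.01 between unlike letters. Such deviations sum to 0 within a group, so the values for unlike letters are not independent of those for like letters. The letters were taken to pair the libraries, from the data and not from the labels. A fit with the letter as a block is given beside many of the results it changes, but not beside every gene and list. The effect was set beside that in MCF10AT1 and MCF10CA1h by contrasts in 1 fit of the 18 libraries.

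Named genes were METTL3, the EMT genes CDH1, CDH2, VIM and MMP2, the 15 largest rises and falls among called genes with a mean of at least 50 and no overlap, the 10 called genes of highest mean, and up to 6 called and 2 abundant members of each list. The members, gene lists and tests were chosen with earlier results of these data known. Promoter windows ran from 250 bases before to 50 after the start of the Ensembl canonical transcript (GENCODE 44, hg38), and printed sequences are from RefSeq. Alternatives were other pseudocounts, filters, scalings, thresholds and fits, and each library left out in turn. The fit was tested on simulated data. Some genes and lists are not reported here.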

Additional observations from a re-analysis of the deposited data

Results flagged for a closer look

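Among the 30 genes with the largest changes in MCF10A, the effect of 13 differed from that in MCF10AT1 and in MCF10CA1h, by the contrast of effects in the joint limma fit, and had the opposite sign in both of those lines. The 30 genes had been chosen for their change in these same MCF10A libraries, so the differences are not independent of that choice. The values that follow are the MCF10A log2 fold change minus that of MCF10AT1 and then of MCF10CA1h, and both comparisons share the MCF10A libraries. Among adhesion and receptor genes the differences were -14.06 and -10.91 for CDH4 and -9.23 and -8.63 for IL1RL1. Interferon-induced genes gave -14.58 and -6.48 for BST2 and -5.77 and -11.02 for IFI6. In genes of transport, scaffolding and secretion they were -9.12 and -6.72 for SLC27A6, -7.59 and -6.30 for AKAP12 and -5.89 and -5.58 for SCG5. MYEOV gave -7.68 and -5.87, and INSC gave -4.73 and -5.74. Higher in MCF10A than in the other lines were the effects of KCNK2 with 3.75 and 4.87, OSR1 with 4.52 and 3.75, PPARGC1A with 6.01 and 5.41, and TP73 with 4.97 and 6.24. Over all genes the effect differed from that in MCF10AT1 in 3437 and from that in MCF10CA1h in 849.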

How the results depend on the processing

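The number of calls, 409 (179 higher, 230 lower), moved with the fit and with single libraries. Without the intensity trend 237 genes were called (108 higher, 129 lower), at an adjusted p under 0.01 there were 45 (13 higher, 32 lower), and the joint fit of 18 libraries called 364 as lower. Leaving out 1 library gave from 52 to 1418 calls, from 13 to 614 of them higher and from 39 to 804 lower. With the replicate letter as a block, which pairs the libraries, there were 1172 calls (438 higher, 734 lower), and the MCF10A effect differed from that in MCF10CA1h in 1283 genes. Without 1 library the latter count was between 482 and 1092. Among the genes named as called the block changed no call. Of 206 called genes named by the rule or afterwards, all kept their call with the block and under median-of-ratios rescaling, 203 at a pseudocount of 5, 195 at 0.5, 199 without the filter, 187 at equal library sums and 119 without the trend, and 0 changed direction under any of these. Equal sums moved the median of all genes by 0.087 and the share of higher calls from 43.8% to 49.6% (194 higher, 197 lower). METTL3 stayed without a call throughout, with log2 fold changes from 0.11 to 0.63 with a library left out. With 3 libraries per group and unknown depth, differences of low genes below the spread of the libraries were not detectable.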
